A study of Oryza sativa Japonica Group with 6 samples.

Results

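The genes described here form the core of ethylene sensing in rice. They are 4 receptor genes (ERS1, ERS2, ETR2 and ETR3), the membrane signalling gene EIN2, the transcription factor genes EIL1A and EIL1B, and ACO1, which makes the hormone. Probe sets were chosen by annotation, as those whose single gene carries one of these 8 names as its symbol or synonym. The genes themselves were chosen with earlier results of these data known. All 8 genes were found among 17905 genes with a named probe set. They gave 10 probe sets of the 57258 on the array other than the manufacturer's controls, with 2 each for EIL1A and ETR2 and 1 for each other gene. Of these, 9 were bright enough to be tested.

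Signals were measured on 6 Affymetrix rice arrays, 2 for each of 3 groups of 1-month-old plants (Oryza sativa, Japonica Group). S58S plants carried a transgene that overexpressed OsSKIPa, a splicing factor by the title of the series, and were selected as seedlings on hygromycin. S59R plants were suppressed for OsSKIPa and were selected on G418. Their arrays are labelled biological repeats 1 and 3, and no suppression repeat 2 is among the 6 arrays. The third group was the wild-type cultivar Zhonghua11, for which the labels name no drug, so line and selection cannot be told apart. The promoters of the transgenes and whether each line was 1 transformation event are not given in the sources used here. The labels call all samples biological replicates, without saying whether plants were pooled. They describe the material both as shoots and as whole plants.

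Ethylene is held off by its own receptors. In the absence of the gas the receptors keep the pathway shut, and binding of ethylene silences them. EIN2 then passes the signal to the nucleus, where EIN3-like (EIL) transcription factors switch on response genes, among them members of the ethylene response factor (ERF) family. In rice, ERS1 and ERS2 belong to one receptor subfamily and ETR2 and ETR3 to another. Loss of EIN2 (MHZ7) makes rice seedlings insensitive to ethylene, and loss of EIL1A (MHZ6) does so in the roots.

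Genes listed as markers of green tissue and of roots, matched by symbol or synonym alone, were both detected. Whether each is particular to its organ was not tested. Of 11 root marker genes 9 were tested, and tom1, Lsi1, Lsi6 and Lsi2 were bright. IRT2 (21.5 to 73), NRT2.3 (22.9 to 74.8) and Pht1;6 (3.6 to 35.3) lay near or below the array medians of 58.4 to 66. YSL15 reached 170.4 in suppression replicate 1 but read 18.1 to 70 on the other arrays. All 5 green shoot markers were above the median on every array. No probe set carried the name of OsSKIPa in the tables used, so the line labels were not checked against the targeted gene. In bulk tissue, fewer cells of a type and less RNA per cell cannot be told apart. Only 2 arrays a group limit the precision of every value below.

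EIL1B was the member that changed most. The probe set of this gene (entry LOC4332697) read 3601.3 and 3373 in the suppression line, against 1098 and 696.6 in the wild type. Both suppression arrays stood more than 3-fold above the higher wild-type array, and the 2 wild-type arrays differed from each other more than the suppression arrays did. The suppression line averaged 3487 ± 161 and wild-type plants 897.3 ± 284 (SD, 2 arrays each), a ratio of 3.89. On the scale of log2(value + 3.3), on which all fold changes are given here, EIL1B rose by 1.99 ± 0.19 (SE; 95% interval 1.55 to 2.43; limma adjusted p = 0.00335). This rise ranked 136th by size among 30366 tested probe sets.

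The overexpression line did not share this level. EIL1B read 927.1 and 871.6 there, both inside the range of the wild-type arrays. The log2 difference from the wild type was 0.04 ± 0.19, with a 95% interval of -0.40 to 0.48 (limma adjusted p = 0.984). Set directly against each other, the overexpression line was lower than the suppression line by 1.95 ± 0.19 on the log2 scale (adjusted p = 0.00187), and the 2 lines did not overlap. EIL1B levels were thus ordered suppression line first, with the overexpression line and wild type not separated beyond their spread.

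**Figure D1:**
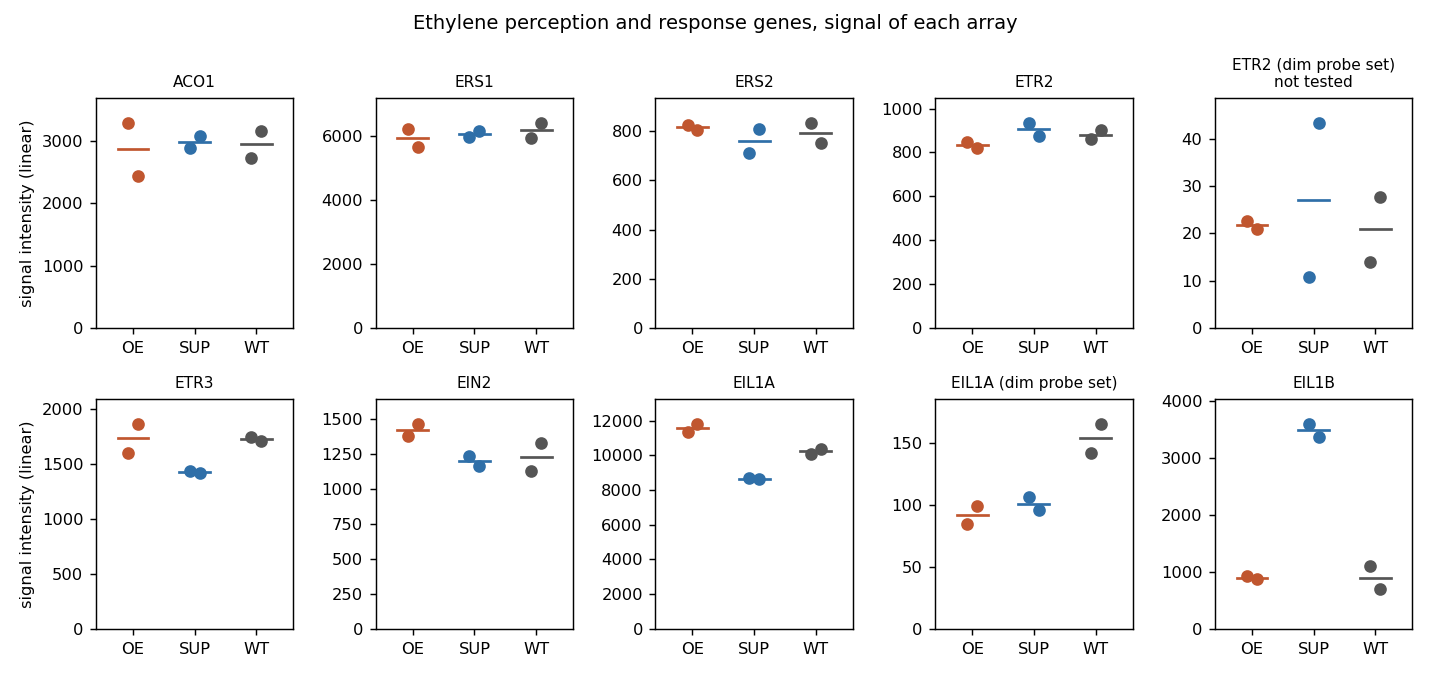
Signal intensity (linear axis from 0) of the 10 probe sets in the overexpression line (OE), the suppression line (SUP) and the wild type (WT); points are single arrays and bars are group means of 2. EIL1B is high in both suppression arrays only, whereas ERS1, ERS2 and the bright ETR2 probe set vary by at most 1.18 times over the 6 arrays and ETR3 is lower in both suppression arrays.

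EIL1A lies directly beside EIL1B in the gene table, with no other gene between them. Both are given the synonym EIL1 there, and the array has separate probe sets for them. The bright EIL1A probe set (gene entry LOC107276358) read 11317.5 and 11830.4 in the overexpression line, 8668.3 and 8644.7 in the suppression line, and 10094.7 and 10373.6 in the wild type. The groups were fully separated, in the order overexpression, wild type, suppression. Between the lines, EIL1A was higher in the overexpression line by 0.42 ± 0.07 (SE; 95% interval 0.25 to 0.58; limma adjusted p = 0.0162), a ratio of means of 1.34.

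Neither step of that order passed alone. Against the wild type, bright-probe EIL1A read 0.18 ± 0.07 in the overexpression line (adjusted p = 0.692) and -0.24 ± 0.07 in the suppression line (adjusted p = 0.137). The difference between the lines lost its call without any 1 of the overexpression or suppression arrays, with estimates from 0.39 to 0.45 and adjusted p from 0.0502 to 0.0988 in those 4 fits. It kept its call without either wild-type array. EIL1B and EIL1A therefore both passed between the lines, but with opposite signs.

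A second, dim EIL1A probe set showed another order. It read 85 and 99.5 in the overexpression line, 106.9 and 95.7 in the suppression line, and 142.2 and 165.9 in the wild type. Both lines lay below the wild type here, by log2 values of -0.72 ± 0.28 (adjusted p = 0.674) and -0.59 ± 0.28 (adjusted p = 0.32), neither of which passed. The 2 EIL1A probe sets thus disagreed in sign for the overexpression line, and the lines overlapped on the dim one.

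EIN2, the step above the EIL factors, gave no call. Its signal was 1376.8 and 1469.6 in the overexpression line, 1239 and 1167.2 in the suppression line, and 1127.7 and 1327.3 in the wild type. The overexpression arrays lay above the other 4. The difference was 0.22 ± 0.12 against the wild type (95% interval -0.06 to 0.50, adjusted p = 0.768) and 0.24 ± 0.12 against the suppression line (adjusted p = 0.282). Between the suppression line and the wild type EIN2 read -0.02 ± 0.12, with an interval of -0.31 to 0.26.

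**Figure D2:**
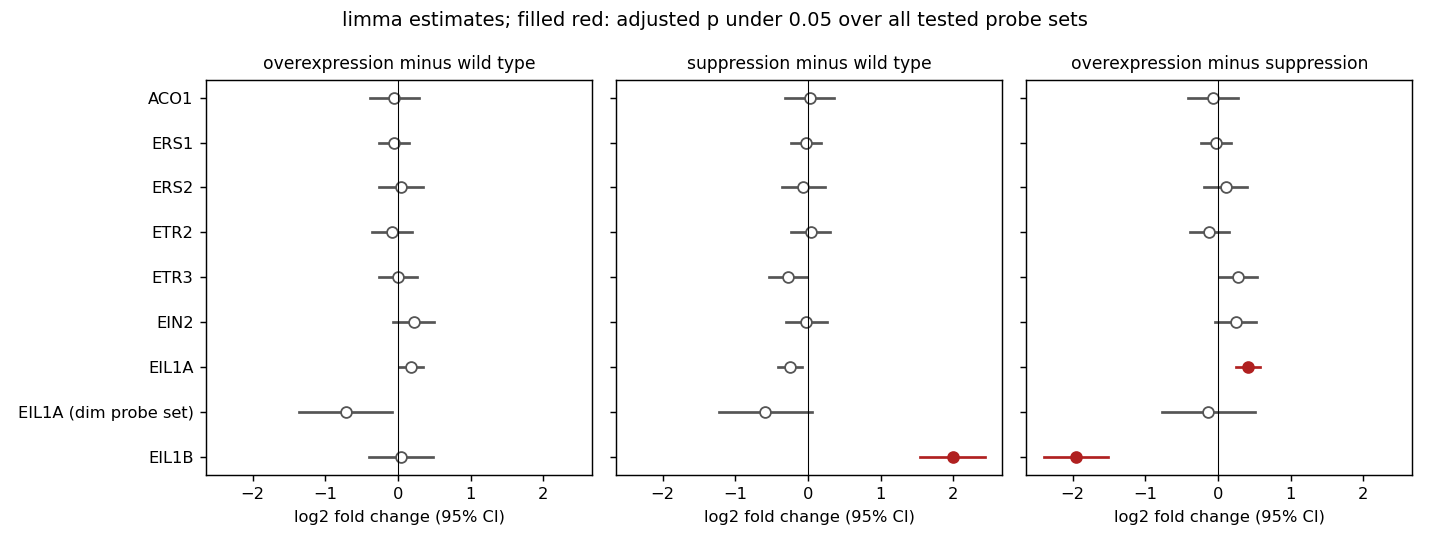
log2 fold changes of the 9 tested probe sets (points) with 95% intervals (lines) in the 3 comparisons, from limma; filled red points have an adjusted p under 0.05. EIL1B passes in the comparisons that involve the suppression line, EIL1A only between the lines, and the receptor genes in none.

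Among the receptor genes, ERS1 was the steadiest. It read 6203.4 and 5651.9 in the overexpression line, 5948.3 and 6136.3 in the suppression line, and 5918.9 and 6409 in the wild type. The highest array was 1.13 times the lowest, and all 3 groups overlapped. The log2 differences from the wild type were -0.06 (95% interval -0.26 to 0.15) in the overexpression line and -0.03 (-0.23 to 0.17) in the suppression line.

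ERS2, of the same subfamily, read 825.8 and 806.2 in the overexpression line, 710.1 and 809.6 in the suppression line, and 834.8 and 752.2 in the wild type. The groups overlapped in each comparison. The difference from the wild type was 0.04 (95% interval -0.26 to 0.34) in the overexpression line and -0.06 (-0.36 to 0.24) in the suppression line.

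ETR2 kept a similar level, with 847.9 and 819.3 in the overexpression line, 936.4 and 877.1 in the suppression line, and 861.4 and 902.4 in the wild type. Its overexpression arrays lay just below the other 4. The difference from the wild type was -0.08 (95% interval -0.35 to 0.19) in the overexpression line and 0.04 (-0.23 to 0.31) in the suppression line. Its other probe set was below the array median on all 6 arrays, between 10.8 and 43.4, and was not tested.

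ETR3 was the receptor gene with the widest spread of group means. It read 1602.6 and 1869.1 in the overexpression line, 1436.9 and 1417.7 in the suppression line, and 1748.4 and 1709 in the wild type. The suppression arrays lay below the other 4. Their difference from the wild type was -0.28 ± 0.11 (95% interval -0.53 to -0.02), with an unadjusted p of 0.0392 that did not hold over all probe sets (limma adjusted p = 0.253). In the overexpression line the difference was 0.00 ± 0.11, with an interval of -0.26 to 0.26. For the 4 receptors, no estimate against the wild type was larger in size than 0.28.

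ACO1 encodes 1-aminocyclopropane-1-carboxylate oxidase, the enzyme of the last step of ethylene synthesis. Its signal was 3289.2 and 2440.4 in the overexpression line, 2880.9 and 3072.8 in the suppression line, and 2726.6 and 3151.1 in the wild type. The overexpression arrays were the highest and the lowest of all 6. The difference from the wild type was -0.05 ± 0.15 (95% interval -0.39 to 0.29) in the overexpression line and 0.02 ± 0.15 (-0.32 to 0.36) in the suppression line.

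Over the members, limma called 0 of 9 tested probe sets in the overexpression line against wild-type plants, where it called 0.0494% of all 30366 (0.0395% higher and 0.00988% lower). An unadjusted p under 0.05 was reached by 2 member probe sets there, against 7.11% of all probe sets. Both were of EIL1A, with opposite signs. Of the 9, the suppression line gave 1 call against the wild type, a rise, where 2.3% of all probe sets were called (0.955% higher and 1.34% lower). Unadjusted, 3 members passed in that comparison, against 17.8% of all. Between the overexpression and the suppression line 1 member was higher and 1 lower, where 6.56% of all were called (3.63% higher and 2.93% lower), and 3 members had an unadjusted p under 0.05, against 23.1% of all. The median log2 difference of the members was 0.00 in the overexpression line, -0.03 in the suppression line and -0.03 between the lines, against -0.01, -0.02 and 0.01 over all tested probe sets.

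Separation of the groups was about as frequent in the members as elsewhere. The 2 arrays of the overexpression line lay clear of the 2 wild-type arrays for 4 of 9 member probe sets (38.1% of all probe sets). The same held for 4 of 9 in the suppression line (48.7% of all) and for 5 of 9 between the lines (53.5% of all). Both EIL1A probe sets were among those separated in each comparison with the wild type. Both comparisons with the wild type use the same 2 wild-type arrays. The median size of the log2 difference was 0.06 for the members and 0.15 for all probe sets in the overexpression line, and 0.06 and 0.21 in the suppression line.

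The EIL1B call against the wild type held in each of the 6 fits that left out 1 array, with estimates of 1.66 without wild-type replicate 2 and 2.32 without wild-type replicate 1, and the other fits between them. Its adjusted p lay between 0.00191 and 0.0261 in those fits. With eBayes without the trend of the variance on the mean the estimate was the same and the adjusted p was 0.0865 against the wild type and 0.0605 between the lines, so the call ended in both. That setting called 26 probe sets of 30366 in the suppression line, against 698.

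**Figure D3:**
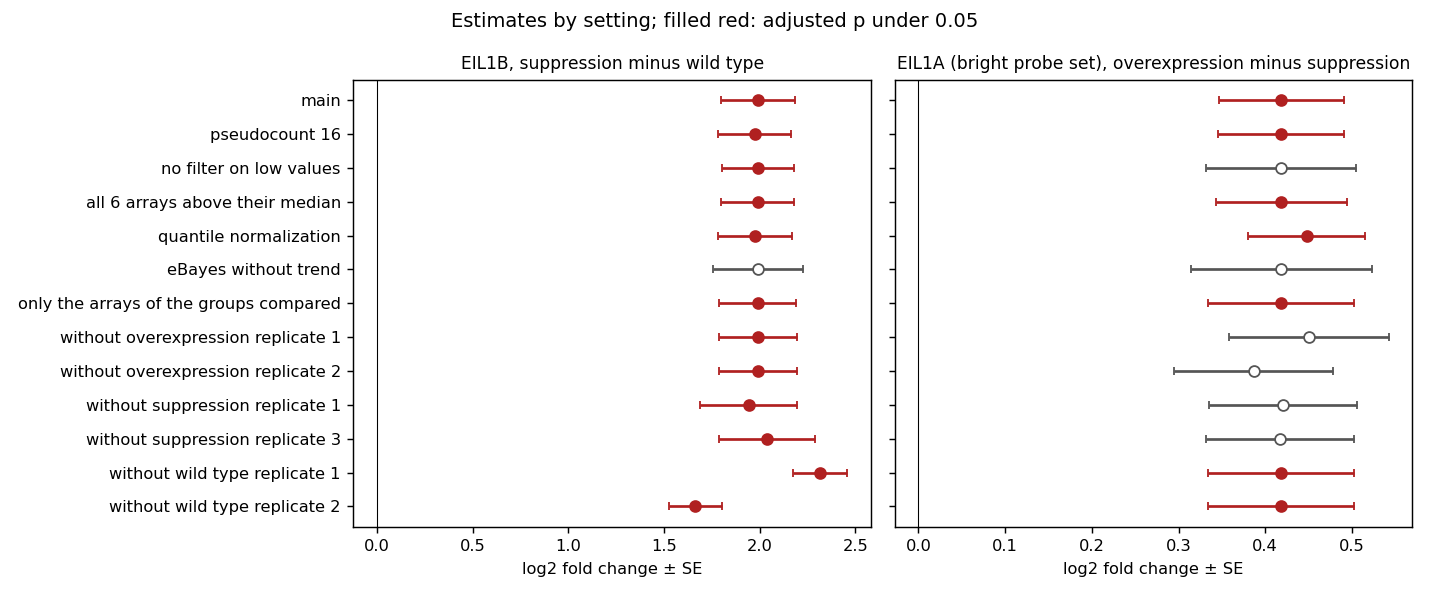
log2 fold changes ± SE of EIL1B (suppression minus wild type, left) and of the bright EIL1A probe set (overexpression minus suppression, right) under each setting; filled red points have an adjusted p under 0.05. EIL1B stays between 1.66 and 2.32 and loses its call only without the variance trend, and EIL1A stays between 0.39 and 0.45 but loses its call in 6 of 12 alternatives.

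Organ marker and 18S rRNA control signals of the same arrays were looked at beside the EIL1B rise, whether or not they moved. The summed signal of the 11 root markers was 19658.3 and 17253.3 in the suppression line and 18212.8 and 15267.6 in the wild type, so these groups overlapped. In the overexpression line the sum, carried mostly by tom1 and Lsi1, was 12474.9 and 14197. The list members IRT1, Lsi6, NRT2.3 and the dim Pht1;6 nevertheless had higher means there than in the wild type. AMT1-2 read 124.6 and 232 in the overexpression line, 1122.1 and 905.9 in the suppression line, and 517.8 and 550.8 in the wild type. In the same order IRT1 read 211.3 and 295.7, 87.9 and 103.3, and 187.4 and 205.9. Of the 9 tested root markers limma called 0 in either line against the wild type. Of all probe sets it called 0.0494% in the overexpression line and 2.3% in the suppression line. An unadjusted p under 0.05 was reached by 3 of them in the overexpression line, against 7.11% of all probe sets, and by 3 in the suppression line, against 17.8% of all. The summed signal of the 5 green markers was 85832.1 and 79792.5 in the suppression line and 86114.2 and 91051.8 in the wild type. These sums did not overlap, but the gap between them was narrow. Of the 5, 1 passed by limma in the suppression line, where 2.3% of all probe sets did (1.34% lower). This was cpdk (pyruvate orthophosphate dikinase), which fell by 0.73 (adjusted p = 0.0412). In that line 3 had an unadjusted p under 0.05, against 17.8% of all. In the overexpression line 0 of the 5 passed and 0 had an unadjusted p under 0.05. GLK1, a regulator of chloroplast development, read 756.4 and 703.1 in the suppression line and 1174.2 and 1798.8 in the wild type, a difference of -0.99 (adjusted p = 0.0566). The Rubisco activase gene rca read -0.29 (adjusted p = 0.0986). The remaining green markers, CAB2R and RBCS, were the brightest and read -0.005 (adjusted p = 0.98) and 0.05 (adjusted p = 0.791). An 18S rRNA control read 3673.9 and 3885.3 in the suppression arrays and 4949.6 to 5450.5 in the other 4. Another 18S rRNA control had a narrower gap, with 3467.8 and 2841.1 in the suppression arrays and 3695 to 4207.5 in the other 4. The part of these values in the EIL1B result was not tested.

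The genes next to the EIL1 pair gave a mixed picture. On the EIL1B side, LOC4332695 read -0.02 ± 0.17 in the suppression line against the wild type (adjusted p = 0.97). On the EIL1A side the next gene had no named probe set, and the one after it, LOC4332699, read 0.34 ± 0.23 (adjusted p = 0.481). Within 6 genes of EIL1B, LOC9271856, the third gene away, was the other gene that passed in that comparison, and it fell, by 0.89, 0.96 and 1.08 on the log2 scale in its 3 probe sets (adjusted p = 0.0198, 0.026 and 0.0475). It was chosen after its values were seen, and its calls were lost in 5, 4 and 9 of 12 alternatives. Short of the threshold, LOC4332701 read -0.78 ± 0.18 (adjusted p = 0.0681). LOC4332690 read -0.52 ± 0.11 (adjusted p = 0.0519) on one probe set and 0.22 ± 0.19 on the other. LOC4332694 read 0.21, LOC4332692 -0.06 and LOC4332700 -0.09. Between the lines LOC4332701 and the first LOC4332690 probe set passed, higher in the overexpression line (adjusted p = 0.0192 and 0.0311). No neighbour with a probe set moved upward past the threshold with EIL1B.

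The comparison of patterns covered 2777 tested probe sets whose single gene has a gene symbol, leaving out those known just by locus or clone. Among these, the signals that followed EIL1B most closely over the 6 arrays were those of GPI-B (Pearson's r = 0.9997), HAK27 (r = 0.998) and OPR7 (r = 0.993), and 55 had an r of at least 0.95. GPI-B carries the synonyms of a glucose-6-phosphate isomerase, HAK27 belongs to the HAK potassium transporters and OPR7 to the 12-oxophytodienoate reductases. HAK27 read 548.1 and 521.9 in the suppression line, 152.6 and 153.3 in the overexpression line, and 201.4 and 120.7 in the wild type. In the suppression line minus the wild type, log2 differences were 1.76 for HAK27, 0.71 for GPI-B and 0.47 for OPR7, given without a test because the genes were chosen for this pattern. With 6 arrays in 3 groups, such an r mostly restates that 2 arrays stand apart, and the wild-type arrays add that replicate 1 lay above replicate 2.

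**Figure D4:**
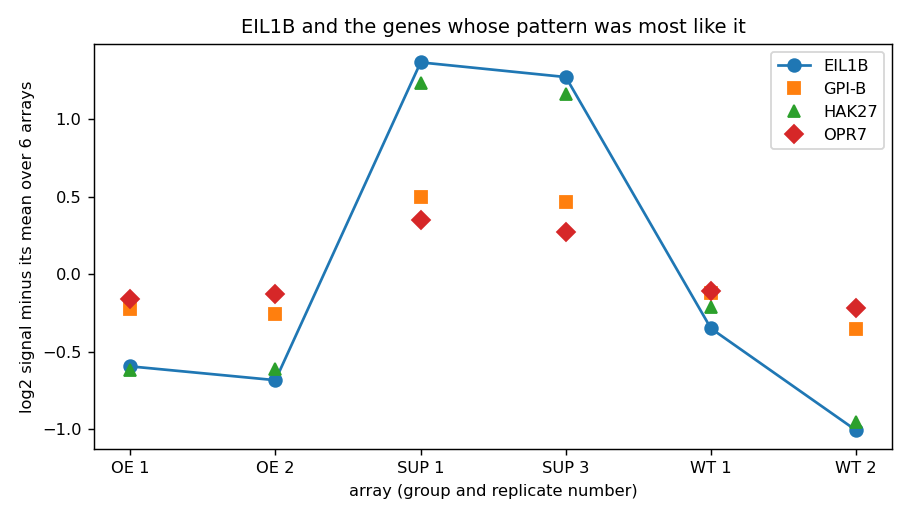
log2 signal of EIL1B, GPI-B, HAK27 and OPR7 in each array, centred on its mean over the 6 arrays, by group and replicate number. All are high in both suppression arrays, with HAK27 spanning nearly the range of EIL1B and the other 2 a narrower one.

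Other genes linked to the ethylene pathway were taken from a list of symbols. It matched 20 genes with a probe set, of which 14 were tested. These were 7 of synthesis and of the methionine cycle that feeds it, and 7 AP2/ERF family genes, most of which are better known as DREB genes. ETR4, the remaining matched receptor gene, lay between 3.1 and 6.8 on all arrays and was not tested. No gene of the list acting between receptor and EIL factors was matched.

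In the overexpression line 0 of the 14 passed against the wild type by limma, where 0.0494% of all probe sets did. An unadjusted p under 0.05 was reached by 2, against 7.11% of all, and the median was -0.01. The 4 with the smallest p were AP2-1 at 0.38 ± 0.10 (adjusted p = 0.523), DREB1G at -1.43 ± 0.58 (0.692), ACS2, an aminocyclopropane-carboxylate synthase gene, at -0.61 ± 0.41 (0.805), and ARD1 at 0.94 ± 0.64 (0.805). The ARD1 entry also carries the names of a heat stress factor, HSFA2C, so its probe sets cannot be assigned to one of them.

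In the suppression line 0 of the 14 passed by limma on their brightest probe sets, where 2.3% of all probe sets did. An unadjusted p under 0.05 was reached by 3, against 17.8% of all, and the median was -0.03. On another, dimmer probe set, the entry that joins ARD2 and HSFA2D fell by 1.01 ± 0.18 (adjusted p = 0.0334), while its brighter one read 0.11 ± 0.12. Among the brightest probe sets MTK1, which encodes a methylthioribose kinase of the methionine salvage cycle, had the smallest p. Its signal was 3292.6 and 3233 in the suppression line, against 4832.2 and 4481.6 in the wild type, and 4198 and 5030.1 in the overexpression line. Both suppression arrays lay below all others, with a difference of -0.51 ± 0.11 from the wild type (adjusted p = 0.0535), which passed in 5 of 12 alternatives. The next were EREBP1 at -0.19 ± 0.07 (0.229), ARD4, an acireductone dioxygenase gene of the same cycle, at -0.29 ± 0.12 (0.258), and AP2-1 at 0.21 ± 0.10 (0.299).

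Between the overexpression and the suppression line 1 of the 14 passed, where 6.56% of all probe sets did. This was MTK1, which was higher in the overexpression line by 0.49 ± 0.11 (adjusted p = 0.0343). Without 1 array it kept that call only when overexpression replicate 1 was left out (0.36 to 0.62 over the 6 fits). The genes for S-adenosylmethionine synthetase, SAM1 and SAM2, which supply the precursor of ethylene, read -0.08 ± 0.07 and -0.17 ± 0.10 in the same comparison and did not pass.

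**Figure D5:**
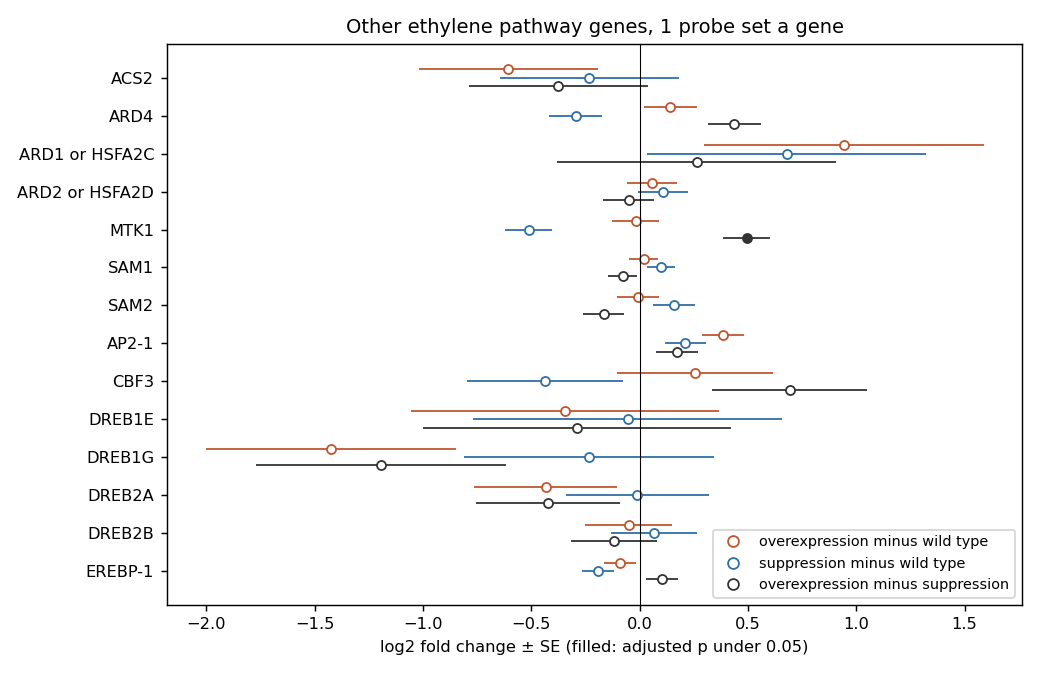
log2 fold changes ± SE of the 14 tested genes of the ethylene list in the 3 comparisons, 1 probe set a gene, with synthesis and methionine cycle genes above the AP2/ERF family genes, mostly DREB genes; the filled point has an adjusted p under 0.05. On these probe sets MTK1 passes between the lines and none passes against the wild type.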

How the data were processed

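The authors deposited 1 signal intensity, on a linear scale, for each probe set and array. Per the labels' protocols, seedlings 10 days old were moved to hydroponics, plants were collected at 1 month, and 6 µg of TRIzol-extracted total RNA was labelled with biotin. The sources used here do not name the software that summarised the probes. The arrays had been scaled before they were deposited (mean of 500.06 after trimming 2% at each end) and array medians differed by at most 1.13 times, so that scale was kept. Values therefore are relative to the rest of each array.

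log2(value + 3.3) was fitted over the 3 groups with limma 3.58.1 in R 4.3.3 (lmFit, eBayes with a variance trend, 3 residual degrees of freedom); 3.3 is the 10th percentile of all values. Probe sets with at least 2 of 6 arrays above the array median were tested (30366), without 123 controls, and two-sided p-values were Benjamini-Hochberg adjusted over all of them at 0.05. The fit was also run on data simulated with the same spread for every probe set. Such data cannot show how the calls depend on the variance trend. Where an array was left out, the remaining array of its group was assumed to vary like the other groups.

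Gene names came from the platform annotation joined to RefSeq genes (assembly ASM3414082v1), which served for names and neighbours only. All 8 member names matched. The members and lists were chosen with earlier results of these data known. The text names the members, list genes that passed or else the 4 with the smallest p, and the 3 genes most like the member with the widest range of group means. List genes were taken at their brightest probe set. The symbols SK1, SK2 and GDD1 of the list matched other genes (shikimate kinases and a kinesin) and were left out after the names were seen, which changed no count. Replicate numbers 1 and 2 are shared by the overexpression and wild-type arrays, but no label says that they pair plants.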

Additional observations from a re-analysis of the deposited data

How the results depend on the processing

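The alternatives were a pseudocount of 16, no filter, a filter of all 6 arrays above their median, quantile normalization, eBayes without trend, only the groups compared, and each array left out. Members called in the suppression line stayed at 1 (EIL1B) except for 0 without trend. Between the lines the 2 members called became 1 without the filter, 0 without trend and 1 to 2 with 1 array left out. In the overexpression line 0 were called throughout. Genes of the ethylene list called in the suppression line became 1 (MTK1) with the stricter filter, quantile normalization or only the groups compared, and 0 to 1 with 1 array left out. Between the lines the 1 became 0 without the filter, without trend or with only the groups compared, and 0 to 1 with 1 array left out.

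All probe sets called in the suppression line numbered 698, but 425 without the filter, 26 without trend and 171 to 583 with 1 array left out. Between the lines there were 1992, but 1255, 69 and 463 to 1410. In the overexpression line there were 15, but 3 with the stricter filter, 0 without trend and 5 to 36 with 1 array left out. With the replicate block, overexpression against wild type gave 9 calls and 0 members; deviations of same-numbered arrays had a correlation of -0.015, so the numbers were not taken as a pairing. The other comparisons share only number 1.

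Signs changed for estimates near 0, none of them called. ETR3 read -0.0015 in the overexpression line after quantile normalization. With 1 array left out, the overexpression line against the wild type gave -0.26 to 0.17 for ACO1, -0.29 to 0.37 for EIL1B, -0.12 to 0.010 for ERS1, -0.033 to 0.12 for ERS2 and -0.11 to 0.11 for ETR3. The suppression line gave -0.083 to 0.13 for ACO1, -0.14 to 0.092 for EIN2, -0.085 to 0.030 for ERS1, -0.16 to 0.031 for ERS2 and -0.0075 to 0.087 for ETR2. Between the lines it was -0.29 to 0.14 for ACO1 and -0.096 to 0.038 for ERS1. The causes were not tested.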

Other observations

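The brighter probe set of the ARD1 entry, which also carries the names of HSFA2C, was high in 1 array of each transgenic line. It read 288.5 and 1053.8 in the overexpression line, 249.4 and 842.6 in the suppression line, and 283.7 and 287.3 in the wild type. The arrays labelled overexpression repeat 2 and suppression repeat 3 were thus the high ones. A second probe set of the same entry read -0.44 ± 0.22 in the overexpression line and -0.49 ± 0.22 in the suppression line against the wild type, and neither passed.

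ACS1, an ethylene synthesis gene too dim to be tested, read 23.7 and 24.6 in the suppression line, against 10.1 and 16 in the wild type, and 13 and 6.1 in the overexpression line. All 6 values lay below the array medians of 58.4 to 66.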
